A study of Homo sapiens with 3 samples.

Results

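Kinesins are motor proteins that use ATP to move along microtubules, and the kinesin genes were examined here in SK-Hep-1 cells, a human line established from a liver tumour. All protein-coding rows of the expression table with a KIF or KIFC1 to KIFC3 symbol were taken, which gave 40 genes of the 16858 protein-coding rows and of 22464 rows in all. The table holds 3 libraries, each from cells made stable for a short hairpin RNA by lentiviral infection. The shNC library carries a negative control hairpin, and the sh1089-1 and sh1089-2 libraries each carry a different hairpin against the long noncoding RNA LINC01089. All 3 share the cell line, and the labels name no other treatment, time or clone. Each group is 1 library, so a difference has no replicate check and no p-value is given. Errors below are 95% counting intervals, which cover counting error only.

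During cell division, kinesins build the spindle, hold and move chromosomes, depolymerise microtubules and organise the midzone where the cell will be cut apart. Between divisions, other kinesins are known to carry vesicles, mitochondria, endosomes and ciliary cargo, most of them toward the fast-growing plus end of the microtubule and a few toward the minus end. Genes of the mitotic kinesins are known to be transcribed late in the cell cycle, while many transport kinesins are made at all times, some of them chiefly in neurons. The 40 genes were placed in 3 classes by these known roles: 13 mitotic kinesins, 15 transport kinesins and 12 others, which act at cilia or centrioles or on microtubule growth, or whose role is less settled. KIF2B and KIF19 were not analysed here, and CENPE, a mitotic kinesin whose symbol does not begin with KIF, is given among the partner genes.

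The libraries held 10698480, 9528312 and 8359832 reads in shNC, sh1089-1 and sh1089-2, as worked out from the steps between the FPKM values (reads scaled by gene length and library total). Markers of hepatocytes were nearly absent: TTR, APOA1 and FGB had 0 reads in each library, and HNF4A had at most 4, while SERPINA1 had 4.69 to 8.0 FPKM. Of the endothelial markers, PECAM1, CDH5 and CLDN5 had at most 1 read and ENG 37.5 to 48.8 FPKM. Of 6 mesenchymal markers 5 averaged 1 FPKM or more. In the order shNC, sh1089-1, sh1089-2, VIM had 922, 1171 and 1445 FPKM, SPARC 312, 230 and 308, FN1 20.2, 18.5 and 32.1, CDH2 6.01, 11.3 and 12.3, and S100A4 14.4, 7.21 and 7.84, while COL1A1 was at 0.46 to 0.67. The part of these marker differences in the kinesin values was not tested. The blood cell markers were low, with at most 2 reads for PTPRC, 8 to 15 for CD68, and 1.6 to 2.1 FPKM (22 to 33 reads) for CD14. LINC01089 itself was not analysed here, so no library label was checked against its target.

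Mitotic kinesin genes stood higher in both hairpin libraries than in shNC, and transport kinesin genes did not. Summed over the 13 mitotic kinesins, the level was 97.7 FPKM in shNC, against 220.9 in sh1089-1 and 248.5 in sh1089-2. The 15 transport kinesins summed to 146.6, 134.9 and 135.3 FPKM, and the 12 others to 24.4, 24.0 and 21.4 FPKM. Mitotic kinesins therefore made up 36.4% of the summed kinesin FPKM in shNC, against 58.2% in sh1089-1 and 61.3% in sh1089-2. Counted as reads they were 4362 of 18575 kinesin reads (23.5%, Clopper-Pearson 95% interval 22.9% to 24.1%), 8509 of 20262 (42.0%, 41.3% to 42.7%) and 8342 of 18507 (45.1%, 44.4% to 45.8%). In bulk RNA, a larger share of dividing cells and more of these mRNAs per dividing cell cannot be told apart.

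**Figure D1:**
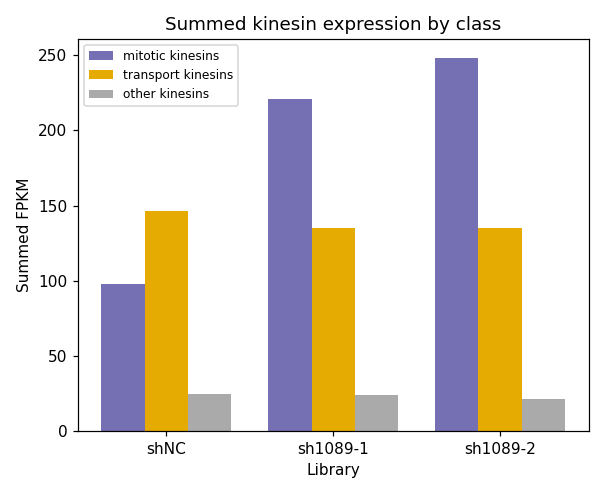
Bars give the summed FPKM (vertical axis, from 0) of the mitotic, transport and other kinesin genes in each of the 3 libraries (horizontal axis), 1 library each and so without error bars. The mitotic sum lies below the transport sum in shNC (97.7 against 146.6) and above it in sh1089-1 and sh1089-2.

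The promoters of the classes also differ in sequence. Motifs were not used to place the genes, but mitotic kinesins are known as late cell cycle genes, where these motifs are common. The difference is therefore not independent of how the classes were drawn. Genes expressed late in the cell cycle often carry a cell cycle genes homology region (CHR), the site bound by the DREAM and MuvB complexes, and a CCAAT box, bound by the factor NF-Y. RefSeq promoter sequences (GRCh38.p14, 250 bases before to 50 bases after the start) were matched by symbol for 33 of the 40 genes. They were searched on both strands for TTTGAA or TTCGAA as CHR, for CCAAT, and for TTTCGCGC or TTTGGCGC as E2F-like sites. None of these motifs holds another of them. A CHR match lay in a promoter of 11 of 13 mitotic kinesins, 1 of 11 transport kinesins and 1 of 9 others, against 14.6% of 8422 expressed protein-coding genes and 19.5% of all 27305 symbols. CHR and CCAAT matches stood together in the promoters of 10 mitotic kinesins, 1 transport kinesin and 1 other, against 6.20% of the expressed genes and 7.85% of all symbols. The kinesin counts include genes whose FPKM averaged below 1, among them KIF4B and KIF20B, which had both motifs. KIF4B is a close copy of KIF4A, and 19 bases lie between the motifs in each, so these 2 promoters are not separate cases. CHR matches were not particular to the kinesins. Counted by promoter, they lay in 9 of 14 promoters (64.3%) of the 12 partner genes of mitotic kinesins with a sequence, against 11.2% of 12222 promoters of expressed genes. Counted by gene, they lay in 32.4% of the 213 genes with a promoter that were higher by 1.5-fold in both hairpin libraries. Those 213 include the mitotic kinesins called higher below. An E2F-like match was found in 1 mitotic kinesin, KIF15, and in 2.53% of expressed genes. A match is a run of letters, not a measured binding site, and the start sites used by these cells were not measured.

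Promoters of 6 mitotic kinesins with high or varied levels are shown to let the CHR and CCAAT matches be compared, from 150 bases before to 12 bases after the annotated start, 5′ to 3′ on the strand of the gene. Capitals mark matches: TTTGAA or its reverse complement TTCAAA for CHR, and CCAAT or its reverse complement ATTGG.
KIF11, chr10:92592980-92593141, plus strand: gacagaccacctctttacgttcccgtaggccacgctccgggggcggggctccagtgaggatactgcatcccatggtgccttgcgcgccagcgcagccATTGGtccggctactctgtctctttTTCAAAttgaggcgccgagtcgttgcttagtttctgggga
KIF4A, chrX:70289954-70290115, plus strand: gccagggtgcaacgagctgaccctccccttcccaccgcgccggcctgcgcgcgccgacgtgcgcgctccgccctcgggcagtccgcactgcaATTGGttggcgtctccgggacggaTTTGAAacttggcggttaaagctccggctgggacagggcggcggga
KIF18B, chr17:44947762-44947923, minus strand: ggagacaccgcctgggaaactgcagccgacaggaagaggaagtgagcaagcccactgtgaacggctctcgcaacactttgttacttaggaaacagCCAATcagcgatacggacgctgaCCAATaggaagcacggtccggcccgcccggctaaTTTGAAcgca
KIFC1, chr6:33391673-33391834, plus strand: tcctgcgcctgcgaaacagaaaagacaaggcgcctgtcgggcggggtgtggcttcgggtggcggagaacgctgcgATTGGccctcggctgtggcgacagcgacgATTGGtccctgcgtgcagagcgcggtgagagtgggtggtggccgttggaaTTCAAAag
KIF20A, chr5:138178962-138179123, plus strand: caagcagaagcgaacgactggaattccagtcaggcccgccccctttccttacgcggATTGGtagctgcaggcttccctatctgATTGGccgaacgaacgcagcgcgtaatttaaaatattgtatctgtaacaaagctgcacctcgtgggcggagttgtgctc
KIF2C, chr1:44739687-44739848, plus strand: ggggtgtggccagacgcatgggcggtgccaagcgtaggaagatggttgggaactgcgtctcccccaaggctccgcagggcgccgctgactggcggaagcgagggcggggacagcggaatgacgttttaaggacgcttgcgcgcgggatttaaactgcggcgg
KIF11 and KIF4A carry a CCAAT match followed by a CHR match 20 and 19 bases further on, both before the start. In KIF18B and KIFC1 the CHR match begins at positions 3 and 5, past the start, behind a pair of CCAAT matches. KIF20A has a pair of CCAAT matches and no CHR match in the window, and KIF2C has neither. Those 2 genes, without a match to TTTGAA or TTCGAA, had the largest ratios of all mitotic kinesins in sh1089-2, as given below. Other letter forms of the CHR were not searched, so these promoters cannot be said to lack one.

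Promoters of 2 of the most highly expressed transport kinesins are shown for contrast, in the same window and with the same marking.
KIF5B, chr10:32056414-32056575, minus strand: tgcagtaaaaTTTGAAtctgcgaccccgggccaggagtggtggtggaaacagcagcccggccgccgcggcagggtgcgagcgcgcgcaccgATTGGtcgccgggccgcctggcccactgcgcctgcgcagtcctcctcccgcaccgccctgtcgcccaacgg
KIF1C, chr17:4997800-4997961, plus strand: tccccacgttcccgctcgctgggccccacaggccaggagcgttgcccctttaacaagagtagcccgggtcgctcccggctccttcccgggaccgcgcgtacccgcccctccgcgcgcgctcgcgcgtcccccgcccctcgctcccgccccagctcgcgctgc
KIF5B is the transport kinesin with a CHR match, which lies at positions −140 to −135 from the start, farther upstream than the nearest CHR match of any mitotic kinesin here. KIF1C has no match. Over the mitotic kinesins with both motifs, the nearest CCAAT match upstream lay 4 bases (KIF23) to 117 bases (KIF20B) from the CHR match, and 18 to 45 bases in KIF14, KIF4A, KIF4B, KIF11, KIF18B, KIF18A, KIF22 and KIFC1. KIF24 was the 1 gene of the other class with CHR and CCAAT matches, 43 bases apart.

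**Figure D2:**
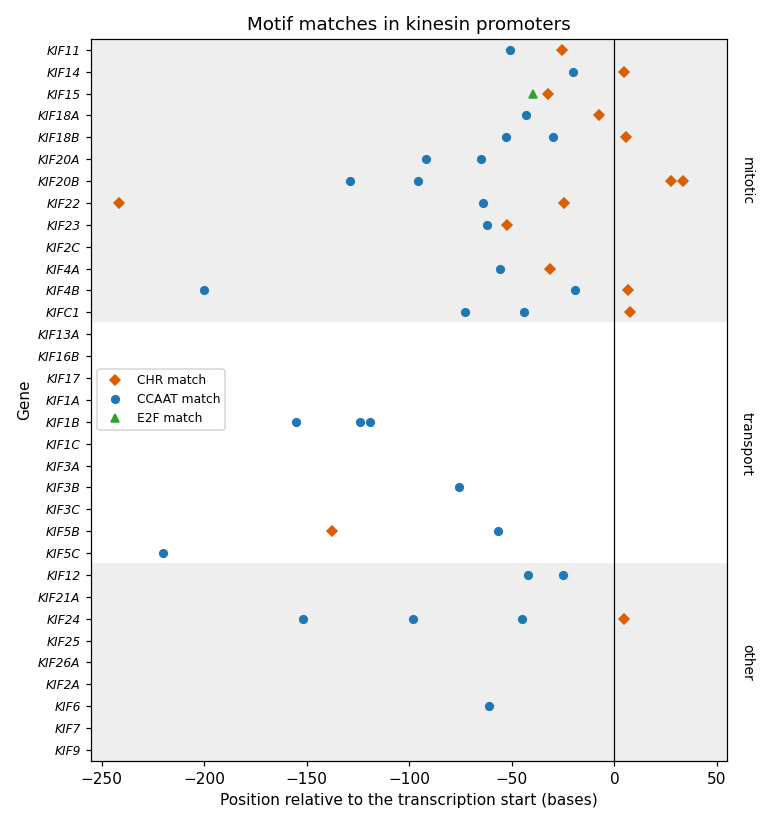
Each row is 1 of the 33 kinesin genes with a RefSeq promoter, and symbols mark the middle of each CHR, CCAAT and E2F-like match by its distance in bases from the transcription start (horizontal axis, start at 0). Matches to CHR are seen in 11 of 13 mitotic rows, 1 of 11 transport rows and 1 of 9 other rows.

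For each comparison, a gene was counted as higher or lower where log2(FPKM + 1) differed by at least 1.5-fold, among the 10313 protein-coding genes whose FPKM averaged 1 or more across libraries. Adding 1 before the logarithm understates differences of low genes, and single-gene ratios below are of FPKM without it. Of the 40 kinesin genes 30 passed this filter: 11 mitotic, 12 transport and 7 others. In sh1089-1, 7 of the 11 mitotic kinesins were higher by 1.5-fold and none was lower, where 4.55% of all genes tested were higher and 4.56% lower. In sh1089-2 the same count was 7 of 11, where 4.04% of all genes were higher and 4.15% lower. Those 7 genes were higher in both, which 2.74% of all genes were: KIFC1, KIF2C, KIF20A, KIF22, KIF18B, KIF4A and KIF11. By 2-fold, 4 were higher in sh1089-1 (0.834% of all genes), 6 in sh1089-2 (1.02%) and 4 in both (0.485%). The median difference of the 11 genes was 0.97 in sh1089-1 and 1.11 in sh1089-2 on the log2(FPKM + 1) scale, beside −0.02 and −0.04 over all genes tested. Both hairpin libraries were set against the same shNC library, so the counts of the 2 comparisons are not independent.

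**Figure D3:**
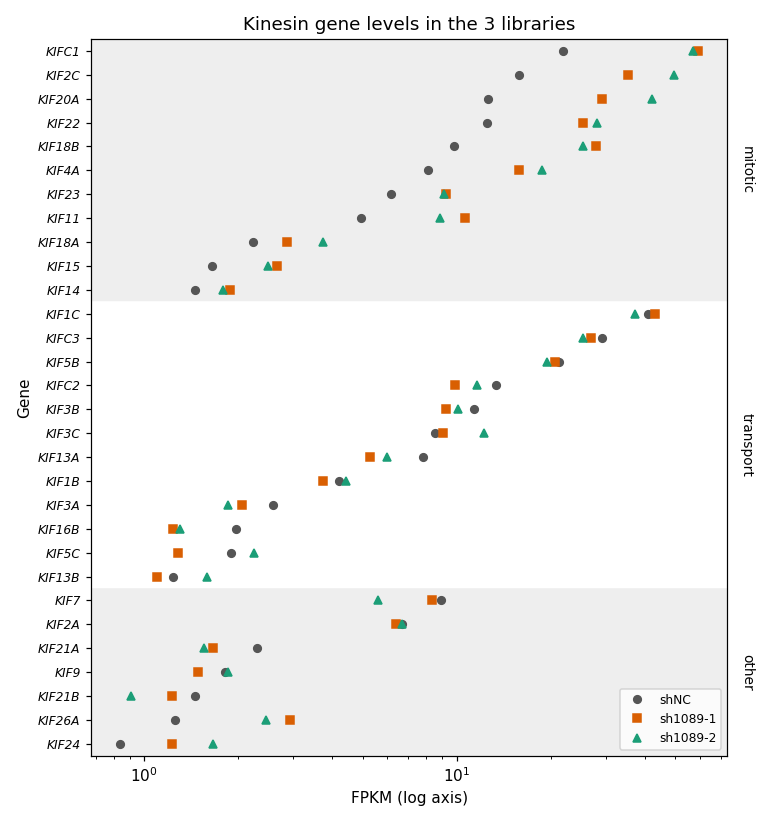
Points give the FPKM (horizontal log axis) of the 30 kinesin genes that passed the filter in shNC (circles), sh1089-1 (squares) and sh1089-2 (triangles), ordered within each class by the shNC level. In all 11 mitotic rows both hairpin points lie to the right of shNC, while the transport rows show points on either side.

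The motors that shape the spindle spanned a wide range of levels. KIFC1 (chromosome 6, 33391536 to 33409924), a minus-end-directed motor that crosslinks spindle microtubules and clusters centrosomes, stood at 21.9 FPKM in shNC, at 59.3 in sh1089-1 and at 57.0 in sh1089-2. Its ratio to shNC was 2.71 (2.48 to 2.96) in sh1089-1 and 2.60 (2.38 to 2.85) in sh1089-2, and it was the kinesin gene with the highest FPKM in each hairpin library. KIF11 (chromosome 10, 92593286 to 92655395), the motor that pushes the spindle poles apart and makes the spindle bipolar, had 4.94, 10.6 and 8.87 FPKM in the same order. The KIF11 ratios were 2.15 (1.85 to 2.51) and 1.80 (1.53 to 2.11). KIF15, which can share the task of KIF11, was lower in level, with 1.65, 2.66 and 2.49 FPKM on 93, 134 and 110 reads. Its ratios of 1.62 (1.23 to 2.13) and 1.51 (1.14 to 2.02) fall short of the 1.5-fold rule because of the pseudocount. All 3 genes were lowest in shNC, and both intervals of each leave out 1.

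Microtubule depolymerases and plus-end regulators showed a range. KIF2C (chromosome 1, 44739818 to 44767767), which depolymerises microtubules at kinetochores and so helps to correct faulty attachments, stood at 15.8 FPKM in shNC, at 35.2 in sh1089-1 and at 49.6 in sh1089-2. The KIF2C ratios were 2.23 (2.03 to 2.47) and 3.14 (2.86 to 3.46). KIF18B (chromosome 17, 44924709 to 44947711), which limits the length of astral microtubules together with KIF2C, had 9.80, 27.8 and 25.4 FPKM. KIF18B had the largest ratio of the 30 genes in sh1089-1, at 2.84 (2.55 to 3.16), and 2.59 (2.32 to 2.90) in sh1089-2. KIF18A, which damps the movements of aligned chromosomes, had 2.23, 2.86 and 3.73 FPKM on 108, 123 and 141 reads. Its ratio was 1.28 (0.979 to 1.67) in sh1089-1, an interval that includes 1, and 1.67 (1.29 to 2.17) in sh1089-2. KIF18A lies on chromosome 11 (28020620 to 28108308) among neighbours that were lower, since its 50 nearest expressed genes had median differences of −0.25 and −0.26. The neighbours of the 7 genes called higher had medians between −0.12 and 0.11. Around transport kinesins the medians took either sign, at −0.23 and −0.20 for KIF5B and 0.06 and 0.11 for KIF3B. The part of such stretches in the kinesin values was not tested.

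Among the motors bound to chromosome arms, KIF22 (chromosome 16, 29790719 to 29805385), which pushes chromosomes toward the middle of the spindle, had 12.5, 25.3 and 28.2 FPKM. Its ratios were 2.03 (1.83 to 2.25) and 2.27 (2.04 to 2.51). KIF4A (chromosome X, 70290090 to 70420832), which acts on chromosome structure and on the central spindle, had 8.09, 15.8 and 18.7 FPKM, with ratios of 1.95 (1.72 to 2.22) and 2.30 (2.03 to 2.61). Both genes were lowest in shNC and higher in sh1089-2 than in sh1089-1. KIF4B, a close copy of KIF4A, rested on 5, 0 and 4 reads, and reads shared between the copies could not be told apart.

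The motors of the central spindle and of cytokinesis also differed among themselves. KIF20A (chromosome 5, 138178719 to 138187715), which brings the chromosomal passenger complex to the midzone, stood at 12.6 FPKM in shNC, at 29.1 in sh1089-1 and at 42.3 in sh1089-2. With ratios of 2.30 (2.07 to 2.56) and 3.35 (3.02 to 3.71), KIF20A had the largest ratio of the 30 genes in sh1089-2. It overlaps CDC23 and BRD8 on the other strand, and whether counting used the strand is not given in the sources used here. Further kinesin genes overlap others, such as KIF4A (PDZD11), KIF18A (METTL15) and KIF24 (UBAP1) on the other strand. KIF15 (TMEM42) and KIF2A (IPO11) do so on the same strand. KIF23, the motor of the centralspindlin complex, had 6.17, 9.27 and 9.08 FPKM and ratios of 1.5 (1.33 to 1.71) and 1.47 (1.29 to 1.68), just short of the rule on the log2(FPKM + 1) scale, at 0.52 and 0.49, and past it at 0.59 and 0.60 when rescaled to TPM. KIF14, which works with citron kinase at the midbody, had 1.45, 1.88 and 1.79 FPKM on 113, 131 and 109 reads. The KIF14 ratio was 1.30 (1.00 to 1.69) in sh1089-1, with the lower bound just above 1 before rounding, and 1.23 (0.940 to 1.62) in sh1089-2, an interval that includes 1. KIF20B, another kinesin of cytokinesis, lay below the filter on 40, 66 and 71 reads, with ratios of 1.85 (1.23 to 2.82) and 2.27 (1.52 to 3.44).

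Counting intervals lay wholly above 1 for 10 of the 11 mitotic kinesins in each comparison, all but KIF18A in sh1089-1 and all but KIF14 in sh1089-2, and for none wholly below. How many of all genes tested had such intervals was not computed, so these counts have no background.

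**Figure D4:**
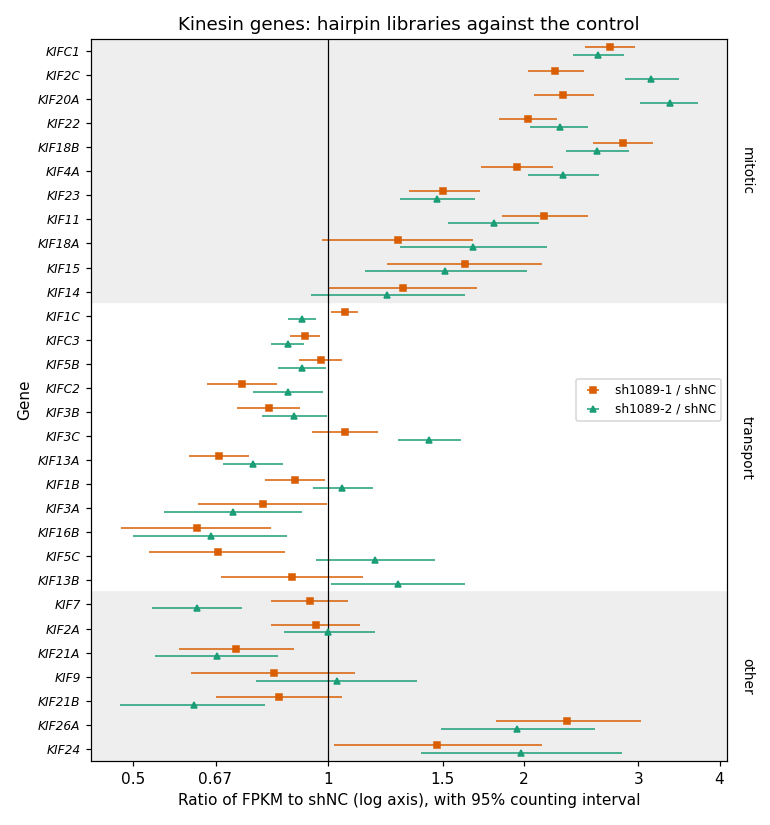
Ratios of FPKM to shNC (horizontal log axis) are given for the 30 kinesin genes that passed the filter, as squares for sh1089-1 and triangles for sh1089-2, with lines for the 95% counting intervals. All mitotic ratios lie above 1, from 1.23 for KIF14 to 3.35 for KIF20A, and the transport ratios lie between 0.627 for KIF16B and 1.43 for KIF3C. KIF2A, a depolymerase with roles in spindles, was placed among the others, with ratios of 0.958 and 1.0.

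Transport kinesin genes stayed within 1.5-fold of shNC on the log2(FPKM + 1) scale in both hairpin libraries, all 12 that passed the filter. Most genes did so too: 4.55% of all genes tested were higher and 4.56% lower in sh1089-1, and 4.04% and 4.15% in sh1089-2. For 12 genes, a count of none is near those shares. Their median differences were −0.19 in sh1089-1 and −0.15 in sh1089-2. The mitotic median exceeded the transport median by 1.15 and 1.26. Small differences were mostly downward: intervals lay wholly below 1 for 8 of 12 genes in each comparison, and for 6 in both. The share of all genes with such intervals was not computed, so these counts have no background. Over all genes tested, the median differences were −0.02 and −0.04.

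KIF1C (chromosome 17, 4997948 to 5028401), a fast motor for vesicles on long tracks, had the highest FPKM of all kinesin genes in shNC, with 40.8 FPKM, then 43.2 in sh1089-1 and 37.1 in sh1089-2. Its ratio was 1.06 (1.01 to 1.11) in sh1089-1 and 0.910 (0.866 to 0.957) in sh1089-2, so the hairpin libraries lay on opposite sides of shNC. KIF5B, the widely expressed heavy chain of conventional kinesin, which carries mitochondria and lysosomes, had 21.3, 20.7 and 19.4 FPKM. The KIF5B ratios were 0.974 (0.900 to 1.05) and 0.911 (0.837 to 0.991), intervals that cover counting error only. KIF1B, a carrier of mitochondria and synaptic vesicle precursors, had 4.20, 3.73 and 4.41 FPKM.

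The minus-end-directed members were split by role. KIFC3, which acts at cell junctions and on apical transport, was second to KIF1C in shNC with 29.2 FPKM, and had 26.9 and 25.3 FPKM in the hairpin libraries. KIFC2, studied mainly in neurons, had 13.4, 9.89 and 11.6 FPKM, with ratios of 0.736 (0.649 to 0.834) and 0.867 (0.766 to 0.981). Both were highest in shNC, whereas KIFC1, their mitotic relative, was lowest there.

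KIF3A, KIF3B and KIF3C form the pairs that, with the adaptor KIFAP3, carry ciliary and other cargo. KIF3B had 11.4, 9.25 and 10.1 FPKM, and KIF3A 2.59, 2.05 and 1.85 FPKM. KIF3A stood at 0.226, 0.222 and 0.182 of the KIF3B level per length. KIF3C went the other way, with 8.54, 9.07 and 12.2 FPKM and ratios of 1.06 (0.943 to 1.19) and 1.43 (1.28 to 1.60).

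Endosome motors were lower in both hairpin libraries, within the 1.5-fold rule on the log2(FPKM + 1) scale. KIF13A, which carries recycling endosomes, had 7.80, 5.29 and 5.97 FPKM and ratios of 0.678 (0.609 to 0.754) and 0.766 (0.688 to 0.852). KIF16B, a motor of early endosomes, had 1.97, 1.24 and 1.30 FPKM on 163, 91 and 84 reads, and ratios of 0.627 (0.480 to 0.815) and 0.660 (0.501 to 0.863). By FPKM alone KIF16B was lower by 1.6-fold and 1.52-fold, and it stays within the rule because of the pseudocount. KIF13A and KIF16B were both highest in shNC, and the hairpin libraries did not differ from each other beyond counting error for KIF16B. KIF13B, a vesicle motor, had 1.24, 1.10 and 1.59 FPKM.

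KIF5C, KIF5A, KIF17 and KIF1A, transport motors known mainly from neurons, were low, unlike KIFC2. KIF5C had 1.90, 1.28 and 2.25 FPKM, below shNC in sh1089-1 at a ratio of 0.675 (0.530 to 0.857) and near it in sh1089-2 at 1.18 (0.958 to 1.46). KIF5A, KIF17 and KIF1A did not pass the filter. KIF5A rested on 62, 31 and 59 reads, KIF17 on 58, 30 and 36, and KIF1A on 11, 4 and 12. The neuronal marker list had 5 of 6 genes in the table and summed to 4.3, 2.1 and 3.3 FPKM, lowest in sh1089-1 like KIF5C, KIF5A, KIF17 and KIF1A. Of these markers SYP (1.33, 0.805 and 1.31 FPKM) alone passed the filter, and RBFOX3 had 8 reads or fewer. The part of these markers in the values was not tested.

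Of the 7 other kinesins that passed the filter, KIF26A was higher by 1.5-fold in both hairpin libraries, and KIF7 was lower in sh1089-2 alone. KIF26A, an atypical member that binds microtubules without motor activity, had 1.26, 2.94 and 2.46 FPKM on 91, 189 and 139 reads. Its ratios were 2.33 (1.81 to 3.03) and 1.95 (1.49 to 2.57). KIF7, which organises the ciliary tip in Hedgehog signalling, had 8.92, 8.35 and 5.60 FPKM, with ratios of 0.935 (0.817 to 1.07) and 0.628 (0.535 to 0.735). This call ended when values were rescaled to TPM (KIF7: −0.58 on the log2 scale) or by the median of ratios (−0.55), just short of 1.5-fold. KIF7 overlaps TICRR, a replication gene on the other strand. No kinesin gene was lower by 1.5-fold in both hairpin libraries, where 2.10% of all genes were.

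KIF24, which restrains cilium formation at the mother centriole, was lowest in shNC and highest in sh1089-2, with 0.839, 1.23 and 1.66 FPKM on 55, 72 and 85 reads. The KIF24 ratios were 1.47 (1.02 to 2.13) and 1.98 (1.39 to 2.83), within 1.5-fold on the log2(FPKM + 1) scale. KIF2A, a depolymerase with roles in spindles and neurons, was level at 6.66, 6.38 and 6.69 FPKM, unlike its relative KIF2C. KIF21A and KIF21B, which restrain microtubule growth, had 2.30, 1.66 and 1.55 FPKM and 1.46, 1.23 and 0.906 FPKM, highest in shNC. KIF9, a kinesin of motile cilia, had 1.81, 1.49 and 1.86 FPKM. The remaining members of this class, KIF26B, KIF27, KIF12, KIF25 and KIF6, lay below 0.4 FPKM in every library, on 50 reads or fewer.

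The hairpin libraries were then compared with each other. None of the 30 kinesin genes that passed the filter differed by 1.5-fold between them on the log2(FPKM + 1) scale, where 1.22% of all genes were higher in sh1089-2 and 1.01% lower. By FPKM alone, KIF5C was higher in sh1089-2 at a ratio of 1.76 (1.38 to 2.24), and KIF5C was past 1.5-fold with a pseudocount of 0.1 or on TPM. KIF5A, below the filter, had a ratio of 2.17 (1.38 to 3.47). Among the mitotic kinesins, KIF20A and KIF2C were higher in sh1089-2, by ratios of 1.45 (1.34 to 1.58) and 1.41 (1.30 to 1.52), while KIF11 was lower, at 0.835 (0.728 to 0.956). KIFC1 and KIF23 had intervals that include 1, at 0.961 (0.896 to 1.03) and 0.979 (0.867 to 1.11). The order of the mitotic motors by ratio to shNC thus differed between the hairpins: KIF18B and KIFC1 led in sh1089-1, and KIF20A and KIF2C in sh1089-2.

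Most genes that act with the mitotic kinesins were higher as well. Of 16 such partners 13 passed the filter, and 9 were higher by 1.5-fold in sh1089-1 (4.55% of all genes), 11 in sh1089-2 (4.04%) and 9 in both (2.74%), with medians of 0.75 and 1.13. AURKB, BIRC5 and CDCA8, members of the chromosomal passenger complex that KIF20A carries, had the largest differences averaged over both hairpins on the log2(FPKM + 1) scale. AURKB had 22.1, 54.8 and 60.6 FPKM, BIRC5 19.1, 50.5 and 46.2 FPKM and CDCA8 14.5, 33.6 and 39.5 FPKM. INCENP, of the same complex, differed less, with ratios of 1.49 and 1.66. By ratio of FPKM, ASPM, a spindle pole protein, was the highest partner among those that passed the filter in sh1089-2, at 3.39 on low levels of 0.987, 2.34 and 3.35 FPKM. INCENP and ASPM were picked after their values were seen. RACGAP1, the partner of KIF23 in centralspindlin, had 20.4, 33.4 and 43.5 FPKM, and the KIF23 level per length was 0.303, 0.277 and 0.209 of it. TPX2, a spindle assembly factor that binds KIF11, had 42.5, 83.7 and 94.7 FPKM. CENPE, the kinetochore kinesin, rested on 20, 31 and 43 reads, with ratios of 1.74 (0.961 to 3.22) and 2.75 (1.58 to 4.94). PRC1, the midzone crosslinker that recruits KIF4A, rested on only 9, 7 and 8 reads, so it gives no comparison. NUSAP1, the remaining partner below the filter and also picked after its values were seen, rested on 24, 35 and 16 reads. The NUSAP1 ratios were 1.64 (0.947 to 2.88) and 0.853 (0.424 to 1.67), both with intervals that include 1.

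Proliferation markers moved with the mitotic kinesins: all 6 lay above shNC in both hairpin libraries. The share of all genes that lay above shNC in both was not computed. By 1.5-fold, 3 of the 6 were higher in both, which 2.74% of all genes were. The summed levels of the markers were 173.9, 303.5 and 312.8 FPKM, with medians of 0.76 and 0.65. MKI67 had 6.73, 13.5 and 14.2 FPKM, CCNB1 46.1, 102 and 125 FPKM, and CCNA2 13.9, 27.8 and 25.2 FPKM. TOP2A, at 29.5, 40.4 and 40.3 FPKM, differed less. Their part in the kinesin result was not tested.

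The partners of the transport kinesins and the opposing motor showed no such difference. Their counts were near the shares of all genes tested: 4.55% higher and 4.56% lower in sh1089-1, 4.04% and 4.15% in sh1089-2. Of 17 kinesin light chains, adaptors and cargo linkers, 1 was higher by 1.5-fold in sh1089-1, none in sh1089-2 and none was lower, with medians of −0.09 and −0.06. That gene was KLC3, a light chain, with 8.67, 13.9 and 12.3 FPKM. KLC1 and KLC2, the light chains of conventional kinesin, had 2.96, 3.54 and 3.31 FPKM and 9.49, 11.1 and 11.8 FPKM, and KIFAP3 had 3.51, 2.47 and 2.88 FPKM. MAPK8IP1, a scaffold for kinesin cargo, had 6.07, 8.76 and 8.55 FPKM, and TRAK2, a mitochondrial adaptor, 6.13, 4.97 and 4.25 FPKM. Of 22 dynein and dynactin genes that passed the filter, 1 was higher in each comparison and none in both, with medians of −0.02 and −0.04. Those were DCTN3 in sh1089-1 (7.60, 12.4 and 11.5 FPKM) and NDE1, a dynein regulator that also acts in mitosis, in sh1089-2 (7.83, 10.9 and 13.7 FPKM). DYNC1I2, an intermediate chain, had 23.7, 17.1 and 16.9 FPKM, and DYNC1H1, the dynein heavy chain, 29.3, 25.3 and 31.8 FPKM.

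**Figure D5:**
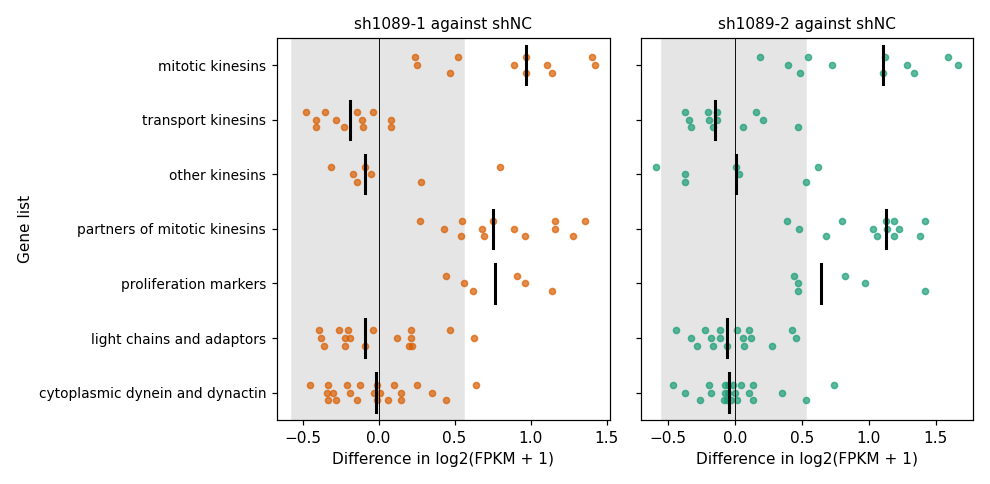
Each point is the difference in log2(FPKM + 1) of 1 gene between a hairpin library and shNC, for sh1089-1 (left) and sh1089-2 (right). Rows are the gene lists, black bars their medians, and the grey band the range of single genes from the 5th to the 95th percentile of all 10313 tested, which is no measure of how far a median can vary. All mitotic points lie to the right of 0, with medians of 0.97 and 1.11, and the transport points lie on both sides, with medians of −0.19 and −0.15.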

How the data were processed

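Per the labels' protocols, Trizol was used to isolate RNA, and mRNA-enriched libraries that keep strand were made, 1 for each of shNC, sh1089-1 and sh1089-2. FastQC, StringTie and the GRCh38 build are named, without versions, per the submitters' processing notes. The aligner, the annotation release and the strand setting of counting were not given in the sources used here. The deposited values are FPKM as the authors computed them. Symbols were found for 22375 of 22464 identifiers, and gene types and coordinates came from GENCODE release 29 (GRCh38).

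Whole reads were recovered from the FPKM steps: for 100% of 19219 genes above 0, some whole length turned each library's value into a whole number, to the precision of the decimals deposited. These lengths equalled the annotated exon length for 61.9% of genes and for 20 of the 40 kinesins, so read counts and intervals of the rest hold only if the inferred length is the one counted over. The step was tested on simulated data. Ratios carry 95% Clopper-Pearson intervals (SciPy 1.17.1). Differences are in log2(FPKM + 1), with a minimum mean FPKM of 1 and no test, since each group is 1 library. All 40 members were accounted for. Of the other lists, the 3 genes with the largest mean difference and 10 preset genes were named. Members, classes and lists were chosen with earlier results of these data known. Alternatives changed the pseudocount, the filter, the scaling, the fold and the class borders.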

Additional observations from a re-analysis of the deposited data

Results flagged for a closer look

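KIF1C drew attention because its hairpin libraries lay on opposite sides of shNC, each with a counting interval that leaves out 1: the ratio of FPKM was 1.06 in sh1089-1 and 0.91 in sh1089-2. The difference between the hairpins was not tested, since each is 1 library.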

How the results depend on the processing

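The count of 7 mitotic kinesins higher by 1.5-fold stayed between 7 and 9 in each hairpin library under every alternative except a fold of 2, which gave 4 in sh1089-1 and 6 in sh1089-2. Over the settings at 1.5-fold, 3.21% to 6.53% of all genes were higher in sh1089-1 and 3.03% to 7.05% in sh1089-2. At a fold of 2 these shares were 0.834% and 1.02%. No called gene changed direction, while medians of the other kinesins, near 0, took either sign. With a pseudocount of 0.1, 1 transport kinesin was lower in sh1089-1 (KIF16B, −0.63), as the 1 kinesin lower there. In sh1089-2, 2 of the others were then higher (KIF24 with 0.91) and 2 kinesins lower (KIF21B with −0.63), and 1 kinesin, KIF5C with 0.77, was higher in sh1089-2 than in sh1089-1. At that pseudocount, 8.35% of all genes were lower in sh1089-1, and 6.02% were higher and 7.28% lower in sh1089-2. Between the hairpins 3.14% were higher in sh1089-2. Of the 30 kinesins, the counts lower are near those shares. Without a filter, the sh1089-2 medians were 0.73 for mitotic and 0.03 for all kinesins and their difference from transport 0.87, and between the hairpins 0.15 and 0.00. At a mean FPKM of at least 5, no kinesin of the other class was higher (0 and 0), where 5.75% and 4.68% of all genes were. The sh1089-2 medians were then −0.29 for others and 0.47 for all, the mitotic minus transport difference 1.36, and between the hairpins −0.22 for others and −0.06 for the difference. Rescaled to TPM, 2 others were higher (7.05% of all genes) and 0 kinesins lower (4.62%) in sh1089-2. On TPM 1 transport kinesin was higher between the hairpins (2.96% of all genes), and the sh1089-2 medians were 1.23 (mitotic) and 0.29 (all). Median-of-ratios scaling left 0 kinesins lower in sh1089-2, where 3.38% of all genes were. At 2-fold, 4 of all kinesins were higher in sh1089-1, and 0 others were higher or lower in either library. With at least 100 reads, or with KIF2A as mitotic, the sh1089-2 mitotic median was 0.92 and the difference 1.07, and with KIF2A so placed the median of the others −0.17. With KIF2A, KIF21A and KIF21B as transport the others had medians of 0.10 and 0.28. No paired analysis was possible because each group is 1 library. The planned description of motor domain positions was not run, as no protein sequences were used here. Depth limits the genes on fewer than 100 reads most, such as KIF24 and KIF20B.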
